A study of Arabidopsis thaliana and Oryza sativa and Cucumis sativus with 30 samples.

Results

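The genes described here flank ROOT HAIR DEFECTIVE 6 (RHD6, AT1G66470) on chromosome 1 of Arabidopsis thaliana. They were chosen by identifier alone, as the genes from AT1G64000 to AT1G67000 listed in the deposited comparison of the rhd6 mutant with wild type, without RHD6 and 6 other named genes. The rule used no measured value and gave 177 of the 17628 listed genes. RHD6 lies towards the end of this stretch, so that 147 of the 174 members that could be tested come before it and 27 after it. Identifiers follow the gene order of the TAIR10.1 annotation for all 176 members found there.

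Epidermal cells were sorted from root tips by green fluorescent protein (GFP) driven by the promoter of WEREWOLF, a gene of the root epidermis, in 3 libraries of wild-type WER::GFP and 3 of rhd6 WER::GFP. Hair cells were sorted from wild type by the hair cell reporter COBL9::GFP (3 libraries), and root hairs were broken off in liquid nitrogen and sieved (3 libraries). All plants carry the variety label Columbia, and all were grown without treatment on MS medium under constant light at 22 °C for 4 to 5 days. The sources used here do not give the rhd6 allele or the crosses by which it came to carry the reporter. The series design calls the 3 libraries of a group biological replicates. The WER::GFP libraries held 10562137 to 23110648 reads, and the depth of the others, given as FPKM, is unknown.

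RHD6 is a basic helix-loop-helix transcription factor that starts root hair formation in hair-forming epidermal cells, and few hairs form without it. Genes that lie beside a mutated gene are inherited with it through crosses, so a mutant line can carry both the altered gene and the surrounding stretch of its chromosome from 1 parent. A difference in such a neighbour can therefore follow from the loss of the regulator or from the stretch itself. In these data both come with the rhd6 label and cannot be told apart.

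The mutant was first checked on RHD6, which is not counted among the members. It was read at 74.3, 75.5 and 85.4 normalized CPM in the wild-type libraries 8955, 9483 and 9489, and at 1.25, 0.940 and 1.99 in the rhd6 libraries 10018, 10019 and 9519. Normalized CPM give the reads of a gene relative to the reads of its library, scaled by the authors with 1 factor per library. All 8 hair cell markers were lower in rhd6, with a summed level of 1987 to 3881 in wild type and 153 to 491 in the mutant. Limma and DESeq2 called all 8, and edgeR called 6. Each of the 3 methods called 0 of the 4 epidermis markers, and 0 of these 4 had an unadjusted limma p below 0.05. In a bulk sample fewer cells of a type and less RNA per cell cannot be told apart. The 4 root cap markers summed to 163 to 195 in wild type, but to 110, 441 and 222 in the rhd6 libraries 10018, 10019 and 9519. Limma called 0 of these 4, 0 of the 3 cortex and endodermis markers listed and 0 of the 2 of the stele, with 1, 0 and 1 at an unadjusted p below 0.05. edgeR also called 0 of them, DESeq2 called 1, of the stele, and no marker of these lists was at 0 in all 6 libraries.

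Of the 174 members tested, 9 were lower in rhd6 (5.17%, against 3.26% of all 17575 genes tested) and 8 were higher (4.60%, against 0.859%), by limma on log2(normalized CPM + 1) at a Benjamini-Hochberg adjusted p below 0.05 over all tested genes. The share called higher was thus above that of all genes, while the share called lower was nearer to it. Of the 8 higher, 6 were below 1 normalized CPM in a wild-type library and entered the test through the rhd6 libraries. Of the 9 lower, 2 were below 1 in a rhd6 library. The share called higher thus rests largely on genes that the mutant brought into the test, and is given as a description. On the rest of chromosome 1, 3.20% of 4413 tested genes were lower and 1.07% higher. The 17 calls together made up 9.77% of the members, against 4.12% of all genes. The groups of 3 libraries did not overlap for any of the 17. The lower calls numbered 4 without library 9483 or 9519, and the higher calls 4 without 8955, 9483 or 9489. The shares of all genes called with a library left out are not given here.

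The median log2 fold change over the 174 tested members was 0.07, against 0.04 over all tested genes, with 100 members above 0 and 74 below. Without regard to the test, the groups did not overlap for 23 members lower and 34 higher in rhd6, which is 32.8% of them against 27.5% of all genes (14.3% lower and 13.2% higher). Members were read less than genes at large, with a median of 9.52 normalized CPM in wild type against 18.0. Among the 120 members with a mean of 5 or more over the 6 libraries, 5.00% were lower and 3.33% higher, against 2.90% and 0.571% of all genes at that level. This mean includes the rhd6 libraries, and AT1G66910 and AT1G65200, both higher, reached it only through them, so the cut does not match wild-type levels. When only genes at that mean were fitted, 6 members were lower and 2 higher. The share of all genes called in that fit is not given here, so these counts cannot be set against it. The authors' deposited table lists 27 members at an FDR below 0.05 (12 lower and 15 higher), against 6.67% of all its genes, and all 17 are among them. On the recovered reads edgeR called 9 members lower (2.91% of all genes) and 6 higher (0.865%), and DESeq2 called 13 lower (5.56%) and 14 higher (2.12%), 27 in all against a background of 7.67%.

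**Figure D1:**
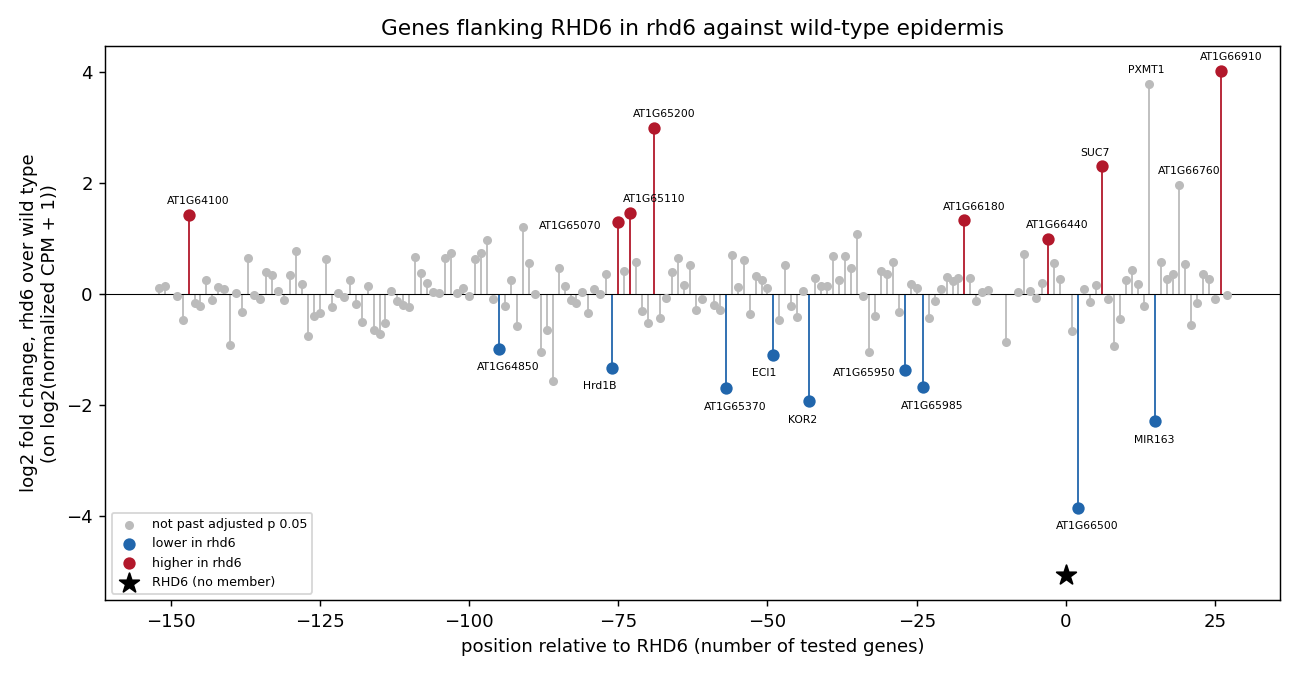
Log2 fold change of each tested member in rhd6 over wild type (y axis, on log2(normalized CPM + 1)) against its place in the order of tested genes, with RHD6 at 0 (x axis, number of tested genes); blue and red points are the 9 lower and 8 higher calls, grey points the other 157. Calls of both directions lie on both sides of RHD6, and the largest fall (-3.86) and rise (4.02) among the members lie after it.

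Along the gene order, gains and losses were interleaved and left a long gap at the start. The first called gene, AT1G64100, stands 147 tested genes before RHD6, and 52 tested genes pass before the next. From AT1G64000 to AT1G64499, 1 of 31 tested genes was higher and 0 lower, and from AT1G64500 to AT1G64999, 1 of 39 was lower and 0 higher. From AT1G65000 to AT1G65499, 2 of 30 were lower and 3 higher, and the 27 genes from AT1G65500 to AT1G65999 held 4 of the 9 losses and 0 gains. From AT1G66000 to AT1G66499, 2 of 21 were higher and 0 lower, and from AT1G66500 to AT1G67000, 2 of 26 went each way. In this order the classes had 3.23%, 2.56%, 16.7%, 14.8%, 9.52% and 15.4% called, against 4.12% of all tested genes. Of all genes 3.26% were lower and 0.859% higher. The shares up to AT1G64999, where the gap lies, were thus near that of all genes.

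Called genes stood near RHD6 and far from it. Within 10 tested genes of it 1 of 19 members was lower and 2 were higher, within 25 it was 3 and 3 of 47, and within 50 it was 6 and 4 of 74. The share called was 15.8%, 12.8% and 13.5% at these distances, and 7 of the 100 members beyond 50 tested genes were called, against 9.77% of all members and 4.12% of all tested genes. The difference between near and far members was not tested. On the near side of the gap, between AT1G64850 and RHD6, the losses stood 95, 76, 57, 49, 43, 27 and 24 tested genes from it and the gains 75, 73, 69, 17 and 3. After RHD6, losses stood at 2 and 15 tested genes and gains at 6 and 26.

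Of the 10 members directly beside RHD6, 5 on each side, 2 were called by limma, which called 4.12% of all tested genes, and 1 by edgeR. A count over 10 genes says little. Going away from RHD6 on the nearer identifiers below it, the protein kinase gene AT1G66460 had a log2 fold change of 0.26, the C1 domain gene AT1G66450 0.55, its neighbour AT1G66440 0.998, the pfkB-like carbohydrate kinase gene AT1G66430 0.19 and the calmodulin gene CAM4 -0.07. Above it, AT1G66480 (plastid movement impaired 2) had -0.66, AT1G66500 -3.86, the AAR2 family gene AT1G66510 0.09, the formyltransferase gene pde194 -0.15 and the arginyl-tRNA synthetase gene AT1G66530 0.17. The called pair, AT1G66440 and AT1G66500, thus stood among neighbours whose adjusted p in limma was 0.407 or more.

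AT1G66500, which encodes a protein of the pre-mRNA cleavage complex II family, had the largest fall among the members. It was read at 200, 195 and 138 normalized CPM in wild type and at 5.77, 13.2 and 17.8 in rhd6. The highest mutant library thus stayed far below the lowest of wild type. Its mean went from 178 ± 34.5 to 12.3 ± 6.08 (SD, n = 3 each), which is 14.5-fold lower, with a log2 fold change of -3.86 ± 0.37 (SE, limma adjusted p = 0.00200). In sorted hair cells it stood at 127 ± 10.1 FPKM, a level per length of gene and depth of library, with little spread over the 3 libraries, but at 6.45 FPKM in sieved hairs. Its closest copy in the genome, AT5G43620, is 92.6% identical over 96.0% of the transcript, and the sources used here do not say how reads that fit both were treated. That copy, on chromosome 5, was read at 90.5, 88.8 and 46.2 in wild type and at 14.7, 33.2 and 41.0 in rhd6 (log2 fold change -1.37 ± 0.42, SE, limma adjusted p = 0.144). Its groups did not overlap, and DESeq2 called it lower (adjusted p = 0.0327).

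MIR163 (AT1G66725), the precursor of the microRNA miR163, was the other loss after RHD6. The values are reads of the precursor transcript, and mature miR163 was not measured. MicroRNAs of plants pair with messenger RNAs along nearly their whole length and lead to their cleavage, and the annotation of MIR163 names methyltransferase genes of the SAMT family as its targets. Mature miR163 and the closest matches without a gap to its pairing sequence are shown because 2 of the genes that hold one, PXMT1 (AT1G66700) and AT1G64840, are members. The mature sequence and the transcripts were read from RefSeq's TAIR10.1 by gene name. The longest annotated transcript of each of 37147 genes was searched for the reverse complement with up to 5 mismatches and no gap, which gave 5 genes. Other transcripts of these genes were not searched.
miR163, 5′ to 3′, seed (bases 2 to 8) in capitals: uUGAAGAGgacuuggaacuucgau
PXMT1 site, 5′ to 3′, mismatches to perfect pairing in capitals: CATCGagttccaagtcctcttcaa
AT1G64840 site, 5′ to 3′, mismatches in capitals: atGgaaCttccaTCtcctcttcaa
FDM1 site, 5′ to 3′, mismatches in capitals: TtcCaaTttccaagtcctcttcaT
AT5G23430 site, 5′ to 3′, mismatches in capitals: aAcgaagttccGagtATtcCtcaa
The site of PXMT1 has 5 mismatches, all at its 5′ end, and pairs with the rest of the microRNA without a gap, seed included. The 5 bases after its first base repeat the first 5 of perfect pairing, so a gap of 1 base would pair them. The search allowed no gap, so the numbers of mismatches do not rank the sites. AT1G66690, a neighbour of PXMT1 that is not among the members, holds the same 24 bases. The site of AT1G64840 has 4 mismatches spread over its first 14 bases, that of FDM1 has 4 with 1 at the last base, and that of AT5G23430 has 5. A match of letters is a description and does not show that a transcript is cut.

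The MIR163 precursor was read at 4.02, 5.61 and 7.40 normalized CPM in wild type and at 0.201, 0.313 and 0.488 in rhd6. All mutant libraries were below all of wild type by a wide margin, with 330 reads over the wild-type group and 20 over the mutant group. Means were 5.68 ± 1.69 and 0.334 ± 0.145 (SD, n = 3 each), 17.0-fold apart, with a log2 fold change of -2.30 ± 0.24 (SE, limma adjusted p = 0.00257). The smaller log2 value comes from the pseudocount of 1. In hair cells of the wild type the precursor was well represented, at 32.1 ± 9.17 FPKM in COBL9::GFP cells and 561 ± 144 in sieved hairs.

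PXMT1, a methyltransferase gene next to MIR163 in the order of tested genes, went the other way in the values but did not pass the test. It was read at 4.02, 16.5 and 9.70 normalized CPM in wild type and at 25.1, 709 and 132 in rhd6. All mutant libraries were above all of wild type, but they spread widely, with library 10019 highest. The means were 10.1 ± 6.26 and 289 ± 368 (SD, n = 3 each), with a log2 fold change of 3.78 ± 1.08 (SE, limma adjusted p = 0.121), while DESeq2 on the same reads gave 4.84 (adjusted p = 0.00258). Over the alternatives the adjusted p ran from 0.00258 to 0.318. Of the other genes with a site, FDM1 was also higher in all 3 rhd6 libraries than in all of wild type, and AT1G64840 and AT5G23430 overlapped between the groups. AT1G64840 was read at 7.08, 8.06 and 7.82 in wild type and at 7.42, 6.33 and 7.54 in rhd6 (log2 fold change -0.10, limma adjusted p = 0.811). FDM1 was read at 17.1, 18.8 and 23.6 in wild type and at 43.7, 31.0 and 25.2 in rhd6 and did not pass in limma, edgeR or DESeq2 (log2 fold change 0.70, limma adjusted p = 0.202). AT5G23430 had a log2 fold change of 0.25 (limma adjusted p = 0.594). MIR163 and PXMT1 share sequence, 84.0% identical over 30.2% of the MIR163 transcript, so reads could be split between them.

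**Figure D2:**
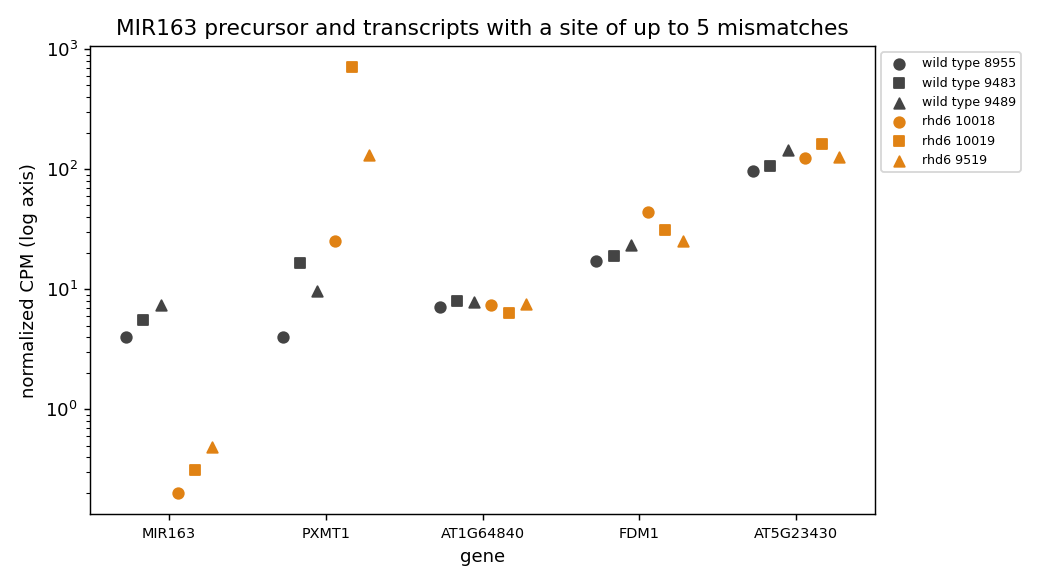
Normalized CPM on a log axis (y axis) of the MIR163 precursor and of the 4 listed genes whose transcripts hold a site with up to 5 mismatches (x axis), 1 point per library, grey for wild type and orange for rhd6. MIR163 is lower in all 3 rhd6 libraries, PXMT1 is higher in all 3 with a wide spread (25.1 to 709), FDM1 is higher in all 3 by less, and AT1G64840 and AT5G23430 overlap between the groups.

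AT1G66910, a gene of the protein kinase superfamily at the far end of the stretch, had the largest rise among the members. It was read at 0.0957, 0.216 and 0.328 normalized CPM in wild type and at 12.9, 28.7 and 17.2 in rhd6. It went from near absence in every wild-type library to a moderate level in every mutant one. The group totals were 13 and 1105 reads, the means 0.213 ± 0.116 and 19.6 ± 8.15 (SD, n = 3 each) were 92.1-fold apart, and the log2 fold change was 4.02 ± 0.29 (SE, limma adjusted p = 0.000699). In wild-type hair cells it was also low, at 0.189 ± 0.0404 FPKM. A neighbouring gene, AT1G66920, is 92.3% identical to 46.6% of its transcript, so its reads are uncertain to that extent.

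SUC7, annotated as a sucrose-proton symporter gene, was not read at all in wild type. It stood at 0 in the 3 wild-type libraries and at 1.86, 5.08 and 5.90 normalized CPM in rhd6, from 251 reads. Taking 3 reads in the whole wild-type group as the limit of a zero, 0.0546 normalized CPM, its mutant mean of 4.28 ± 2.14 (SD, n = 3) was at least 78.4-fold higher (log2 fold change 2.30 ± 0.33, SE, limma adjusted p = 0.00896). It was at 0.0708 FPKM in 1 COBL9::GFP library and listed at 0 in the others. SUC6 (AT5G43610) is 93.0% identical to it, so the reads may be split between the paralogs. SUC6 has no values in the rhd6 comparison and stood at 0 FPKM in all 3 COBL9::GFP libraries.

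Genes annotated as ubiquitin carboxyl-terminal hydrolase-related stand near each other before RHD6, and 2 of them rose. AT1G65200 was read at 0.766, 0.216 and 0.281 normalized CPM in wild type and at 15.4, 8.09 and 8.25 in rhd6. The groups were far apart, with 19 and 622 reads, and the means of 0.421 ± 0.301 and 10.6 ± 4.18 (SD, n = 3 each) differed 25.1-fold (log2 fold change 2.99 ± 0.29, SE, limma adjusted p = 0.00200). AT1G65110 was read at 0.287, 0.690 and 0.703 in wild type and at 5.27, 2.88 and 2.17 in rhd6 (log2 fold change 1.46 ± 0.29, SE, limma adjusted p = 0.0319). Its call was lost without any 1 of the wild-type libraries. The third listed gene of that annotation next to them, AT1G65120, had 3.16, 2.03 and 2.39 in wild type and 5.57, 3.45 and 3.86 in rhd6, and did not pass (log2 fold change 0.58 ± 0.23, SE, limma adjusted p = 0.261). AT1G65120 is 83.2% identical to AT1G65110 over 77.2% of the latter's transcript. In COBL9::GFP cells all 3 were near the bottom of the scale, at 0.0049, 0.00399 and 0.0645 FPKM.

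The remaining 4 gains began from low wild-type levels. AT1G64100, a pentatricopeptide repeat gene of the kind that acts on organelle RNA, was read at 0.670, 0.474 and 0.328 normalized CPM in wild type and at 3.36, 2.51 and 3.15 in rhd6. Each mutant library was several times above each of wild type (log2 fold change 1.43 ± 0.20, SE, limma adjusted p = 0.00696), but the gene overlaps AT1G64105 on the same strand. Among the closest copies of called members, AT1G63230, a tetratricopeptide repeat-like gene of chromosome 1 and no member, went the other way. AT1G63230 was read at 8.42, 10.4 and 10.7 in wild type and at 1.25, 1.13 and 1.95 in rhd6 (log2 fold change -2.16, limma adjusted p = 0.00202). Its identity to AT1G64100 is not given here, so reads between such repeat genes are uncertain. AT1G65070, a MutS-type mismatch repair gene, was read at 2.68, 4.83 and 5.25 in wild type and at 9.33, 14.2 and 11.7 in rhd6 (log2 fold change 1.30 ± 0.27, SE, limma adjusted p = 0.0391). AT1G66180, an aspartyl protease gene, was read at 6.13, 6.86 and 3.09 in wild type and at 13.4, 14.4 and 15.3 in rhd6 (log2 fold change 1.33 ± 0.27, SE, limma adjusted p = 0.0384). AT1G66440, a C1 domain gene 3 tested genes from RHD6, was read at 0.479, 0.647 and 1.12 in wild type and at 2.61, 2.76 and 2.04 in rhd6 (log2 fold change 0.998 ± 0.21, SE, limma adjusted p = 0.0466). The calls of AT1G66180 and AT1G66440 were lost without any 1 of the 6 libraries and in edgeR, and that of AT1G65070 without any 1 but library 10018.

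**Figure D3:**
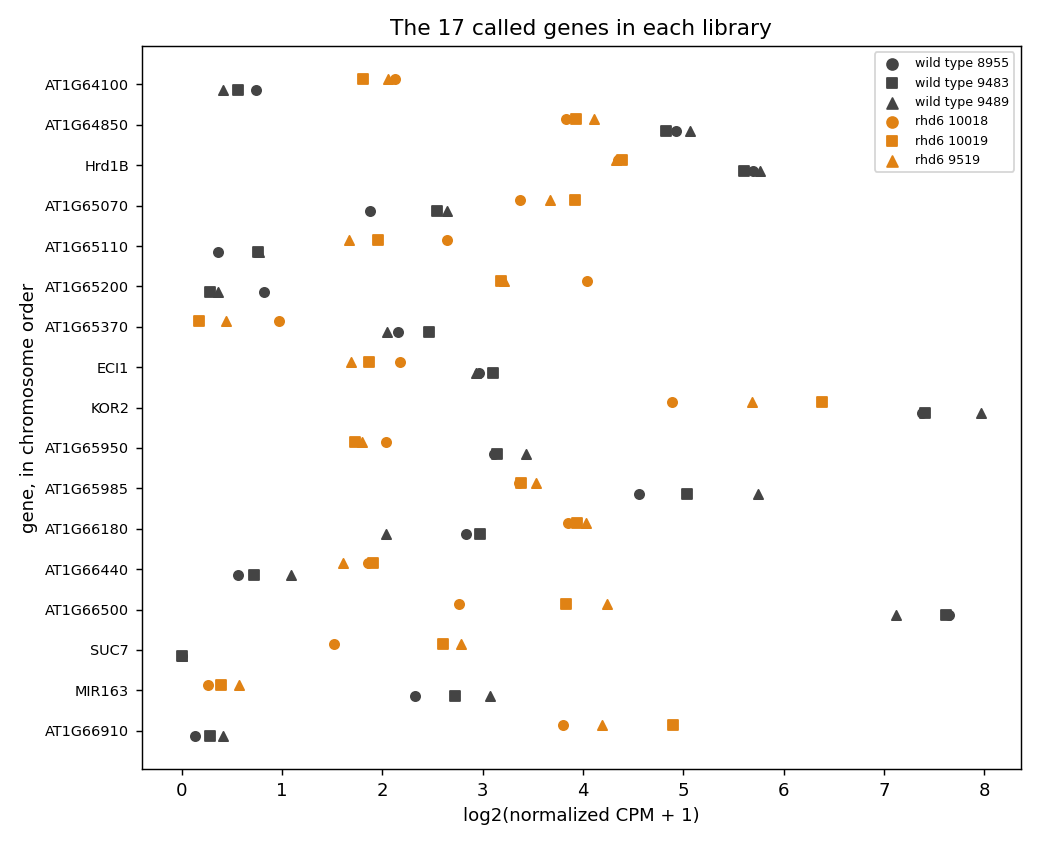
Level of each of the 17 called members (rows in chromosome order) on log2(normalized CPM + 1) (x axis), with 1 grey point for each wild-type library and 1 orange point for each rhd6 library. The groups do not overlap for any of the 17, and SUC7 is at 0 in all 3 wild-type libraries.

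The 7 losses before RHD6 were mostly moderate. Hrd1B, an E3 ubiquitin ligase of protein quality control in the endoplasmic reticulum, was read at 50.6, 47.8 and 53.2 normalized CPM in wild type and at 19.3, 20.0 and 19.1 in rhd6. It had little spread within either group (means 50.5 ± 2.67 and 19.5 ± 0.485, SD, n = 3 each), and was 2.60-fold lower (log2 fold change -1.33 ± 0.16, SE, limma adjusted p = 0.00381). KOR2, a membrane-bound endoglucanase of the KORRIGAN family, which acts on cellulose at the wall, was read at 165, 169 and 249 in wild type and at 28.5, 82.3 and 50.4 in rhd6. Its means were 194 ± 47.1 and 53.7 ± 27.1 (log2 fold change -1.93 ± 0.38, SE, limma adjusted p = 0.0302), so the mutant libraries varied among themselves by more than for Hrd1B. KOR2's call was lost without any 1 of the wild-type libraries and without the rhd6 library 9519.

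AT1G65985, a transmembrane protein gene of the DUF247 family, was read at 22.5, 31.8 and 52.6 normalized CPM in wild type and at 9.28, 9.40 and 10.6 in rhd6 (log2 fold change -1.69 ± 0.30, SE, limma adjusted p = 0.0201). AT1G65950, a kinase superfamily gene near it, was read at 7.66, 7.85 and 9.79 in wild type and at 3.11, 2.32 and 2.48 in rhd6 (log2 fold change -1.37 ± 0.20, SE, limma adjusted p = 0.00833). The mutant values were close together in both genes. AT1G65370, a TRAF-like gene, was read at 3.45, 4.53 and 3.14 in wild type and at 0.953, 0.125 and 0.355 in rhd6 (log2 fold change -1.70 ± 0.26, SE, limma adjusted p = 0.0104). ECI1, an enoyl-CoA isomerase of the breakdown of unsaturated fatty acids, was read at 6.80, 7.59 and 6.65 in wild type and at 3.51, 2.63 and 2.22 in rhd6 (log2 fold change -1.09 ± 0.20, SE, limma adjusted p = 0.0246), and overlaps AT1G65540 on the same strand. AT1G64850, an EF hand calcium-binding gene, was read at 29.5, 27.3 and 32.6 in wild type and at 13.2, 14.2 and 16.3 in rhd6 (log2 fold change -0.98 ± 0.18, SE, limma adjusted p = 0.0204). The calls of ECI1 and AT1G64850 were lost without any 1 of the wild-type libraries or the rhd6 library 9519, that of AT1G65370 without 9483 or 9519, and that of AT1G65985 without 9483, 9519 or 10018.

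By role, as sorted from words of the annotation, genes of RNA, DNA, chromatin and protein turnover held 3 lower and 5 higher of 37 tested, with a median log2 fold change of 0.17. They include AT1G66500, Hrd1B and MIR163 among the losses and the AT1G65110, AT1G65200, AT1G64100, AT1G65070 and AT1G66180 gains. Receptors, kinases and resistance proteins had 1 lower and 1 higher of 19, and transport genes 0 lower and 1 higher, SUC7, of 10. Other enzymes had 1 lower, ECI1, of 23. Limma, edgeR and DESeq2 called 0 of 5 regulators of transcription and 0 of 7 genes of the cell wall and surface, with 0 and 1 at an unadjusted limma p below 0.05. These methods called 4.12%, 3.78% and 7.67% of all genes, so 0 calls among so few genes say little about these groups. Sorting by words is coarse, and it left KOR2 among the 68 other or uncharacterized genes.

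Genes of the stretch with well known roles did not pass the test. Of 16 such genes listed, 11 are members, and 0 were called by limma, edgeR or DESeq2, with 2 at an unadjusted limma p below 0.05. As these methods called 4.12%, 3.78% and 7.67% of all genes, 0 of 11 says little about such genes. RHD1, a UDP-glucose epimerase needed for normal root hairs and root epidermis, was read at 72.5, 61.8 and 62.9 normalized CPM in wild type and at 42.8, 51.2 and 61.4 in rhd6 (log2 fold change -0.35, limma adjusted p = 0.401). CLV2, a receptor-like protein of the CLAVATA pathway, was read at 1.34, 1.94 and 2.01 in wild type and at 3.71, 3.57 and 3.10 in rhd6, without overlap, but did not pass (log2 fold change 0.70, limma adjusted p = 0.115). The DELLA protein gene RGL1, a repressor of gibberellin responses, had 0.72 (limma adjusted p = 0.202). NPR1, a salicylic acid receptor of immunity, had a log2 fold change of -0.01, the auxin signalling kinase TMK1 0.24, the chromatin assembly gene FAS1 0.25, the leaf polarity gene AS2 0.28 and the cytosolic glutamine synthetase gene GSR2 0.28. The calmodulin-like CML23 had 0.05 and the glutamate decarboxylase gene GAD2 0.18.

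Some members not past the test in limma or edgeR had wide differences in their values, and DESeq2 called most of them. Besides PXMT1, 6 had a log2 fold change of 1 or more in size, and they were chosen for their values. DESeq2 called 5 of these 6, all but CYP89A7. The MATE efflux gene AT1G66760 was read at 11.6, 9.53 and 7.31 normalized CPM in wild type and at 12.7, 93.7 and 50.1 in rhd6 (log2 fold change 1.97 ± 0.63, SE, limma adjusted p = 0.164, DESeq2 adjusted p = 0.000814). PAO4, a polyamine oxidase of peroxisomes, was read at 371, 421 and 509 in wild type and at 152, 233 and 256 in rhd6 (log2 fold change -1.04, limma adjusted p = 0.0856, DESeq2 adjusted p = 0.0106). YSL7, of a family of metal chelate transporters, had 1.08 (limma adjusted p = 0.125, DESeq2 adjusted p = 0.0302). The cytochrome P450 genes of family CYP89A went both ways, with CYP89A2 at a log2 fold change of 1.20 (DESeq2 adjusted p = 0.0149), CYP89A5 at -1.57 (DESeq2 adjusted p = 0.0129), CYP89A7 at -1.05 and CYP89A6 at -0.66. Neither CYP89A7 nor CYP89A6 passed in limma, edgeR or DESeq2. CYP89A5 and CYP89A6 are 93.9% identical over most of their length, so reads between them are uncertain.

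The mutant libraries differed among themselves, most often by low values in library 10018 and high values in library 10019. For 11 members that library was at least 2-fold above both other rhd6 libraries (6.32%, against 5.88% of all tested genes), and for 15 library 10018 was at least 2-fold below both (8.62%, against 8.32%). AT1G65570, a pectin lyase-like gene, was read at 89.6, 126 and 124 normalized CPM in wild type and at 13.1, 521 and 121 in the rhd6 libraries 10018, 10019 and 9519. It thus followed the order of the summed root cap markers, 110, 441 and 222. The summed hair cell markers (153, 491 and 302) and stele markers (121, 265 and 169) had that order too. Those of the epidermis (255, 152 and 188) and of the cortex and endodermis (18.6, 34.2 and 11.7) did not. GAD2, a glutamate decarboxylase gene that makes the signalling compound GABA, was read at 11.0, 77.4 and 17.8 in these libraries, and the late embryogenesis abundant-like gene AT1G65690 at 1.15, 19.6 and 3.59. PXMT1 has the same order, and the part of root cap or other cells in its values was not tested.

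**Figure D4:**
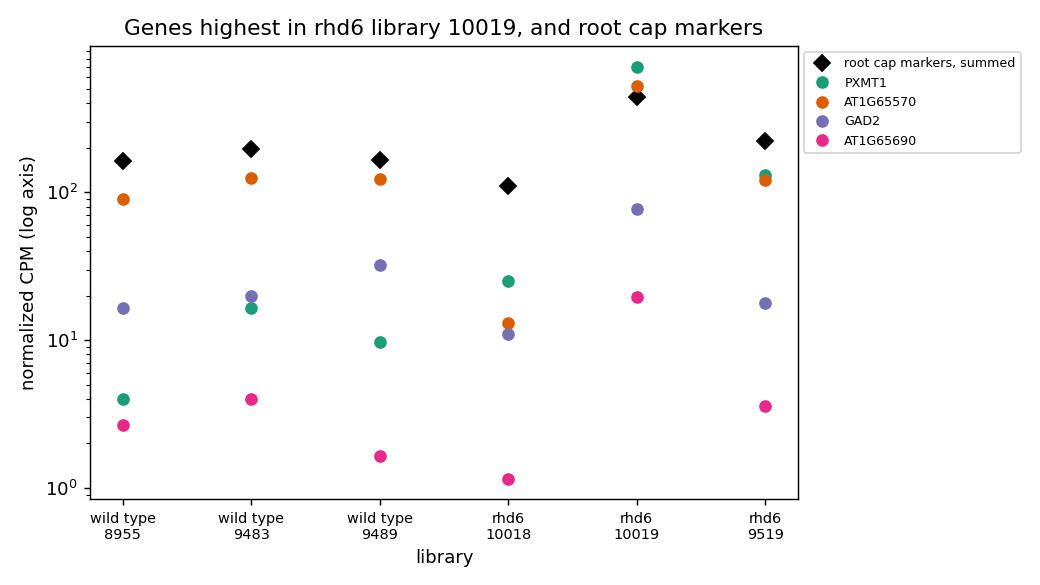
Normalized CPM on a log axis (y axis) in each of the 6 libraries (x axis) of 4 members highest in rhd6 library 10019 and of the sum of 4 root cap markers (black diamonds). All 5 series peak in library 10019, and in wild type the root cap sum lies between 163 and 195. Summed hair cell and stele markers, not shown, have the same order among the rhd6 libraries.

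All 177 members are listed in the table of sorted COBL9::GFP hair cells, and 140 reached a mean FPKM of 1. Of the 174 tested members 137 did so (78.7%), against 85.9% of all tested genes, and their median was 6.55 FPKM against 8.30. The COBL9::GFP libraries were not alike, since the hair cell markers summed to 4657, 1425 and 2842 FPKM and the root cap markers to 31.6, 478 and 251 FPKM in the 3 libraries. The highest members were SAG24, annotated as a senescence associated gene, at 848 ± 402 FPKM (405, 1189 and 951 in the same 3 libraries), the cytosolic isocitrate dehydrogenase gene cICDH at 501 ± 154, and AT1G65570 at 399 ± 318 (SD, n = 3). AT1G65570 was at 56.0, 684 and 456 FPKM, and both it and SAG24 had the same order of libraries as the root cap markers. The levels of both thus rest on which libraries are read, as does the place of AT1G65570 among the members. These 3 highest members were followed by the ubiquitin-conjugating enzyme gene UBC28 (274 ± 40.9), the microsomal glutathione S-transferase gene AT1G65820 (229 ± 48.4), CAM4 (223 ± 10.9), the copper chaperone gene ATX1 (192 ± 16.2), the peroxiredoxin gene TPX1 (190 ± 26.1), the acyl carrier protein gene mtACP2 (188 ± 53.1) and PAO4 (188 ± 62.7). Neighbours in this order differed by less than the larger of their SDs, except CAM4 and ATX1. Limma and edgeR called 0 of these 10 in rhd6, with 1 at an unadjusted limma p below 0.05, and DESeq2 called PAO4. With 4.12%, 3.78% and 7.67% of all genes called by limma, edgeR and DESeq2, counts over 10 genes say little.

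Members lower in rhd6 stood high in hair cells and members higher in rhd6 stood low there. Of the 9 losses 8 reached a mean FPKM of 1 in COBL9::GFP cells, with a median of 32.1 FPKM, and the exception was AT1G65370 at 0.172 FPKM. Of the 8 gains 2 did, AT1G64100 at 7.03 ± 1.74 and AT1G66180 at 3.71 ± 3.32 FPKM, and the median of the gains was 0.258 FPKM. The 157 members not called had a median of 6.64 FPKM, with 127 at 1 or more. Wild-type epidermis showed the same order, with medians of 29.8, 0.525 and 11.5 normalized CPM for losses, gains and others, and the choice of genes fixes much of it. A gene can be called lower only where wild type reads it, and 6 of the 8 gains were below 1 normalized CPM in a wild-type library and reached the filter through the rhd6 libraries, so these levels are given as a description. After AT1G66500, the losses most abundant in hair cells were KOR2 at 120 ± 60.2 FPKM, AT1G64850 at 62.3 ± 7.63, Hrd1B at 33.1 ± 1.87 and MIR163 at 32.1 ± 9.17 (SD, n = 3). KOR2 was at 186, 69.1 and 104 FPKM in the 3 libraries, the order of the hair cell markers there.

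**Figure D5:**
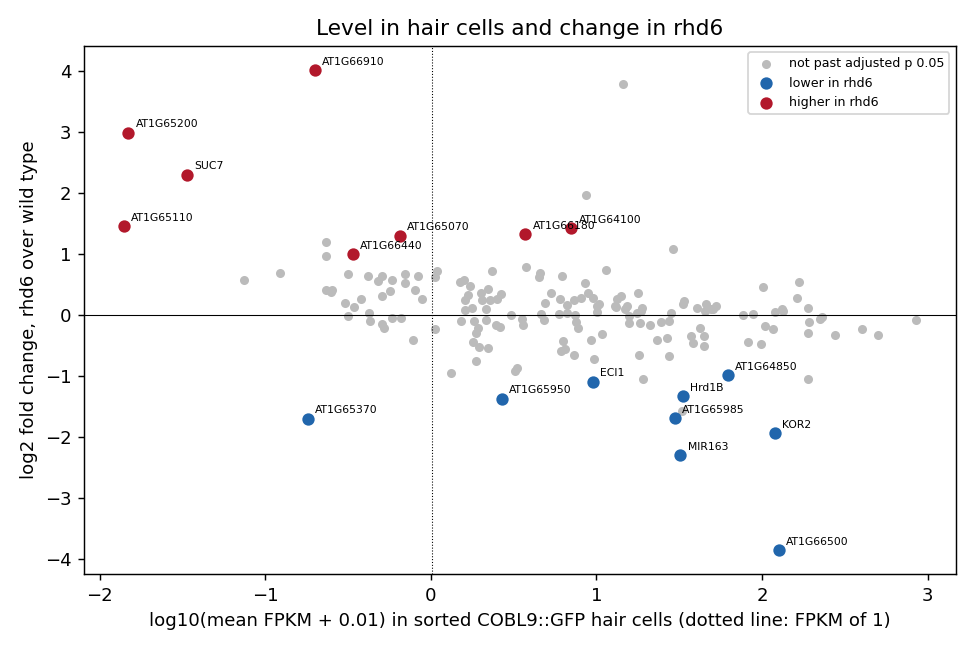
Log2 fold change of each tested member in rhd6 over wild type (y axis) against its mean level in sorted COBL9::GFP hair cells as log10(FPKM + 0.01) (x axis), with blue points lower, red points higher and grey points not past the test. Of the 9 losses 8 lie right of the dotted line at an FPKM of 1, and 6 of the 8 gains lie left of it.

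In sieved hairs, whose table starts at a mean FPKM of 3, 123 of the 174 tested members were listed (70.7%, against 75.8% of all tested genes). All 9 losses were among them, and 3 of the 8 gains. The highest members there were GSR2 at 719 FPKM, ATX1 at 579, MIR163 at 561 and AT1G65820 at 553. AT1G64100, higher in rhd6, was at 39.4 FPKM there, and AT1G65370, near the bottom in COBL9::GFP cells, at 12.6. Sorted cells and sieved hairs were prepared with different kits, so their levels were not compared by a test.

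3 members were not tested because fewer than 3 of the 6 libraries reached 1 normalized CPM. One of them, the calcineurin B-like calcium sensor gene CBL8 (AT1G64480), was read at 0.383, 0.388 and 0.422 in wild type and at 0.953, 4.14 and 2.70 in rhd6, without overlap. With no filter its adjusted p in limma was 0.106, and the authors' deposited table gives an FDR of 0.00036. Of 351 genes of the interval in the COBL9::GFP table, 168 are not in the rhd6 table, and 11 of those reached a mean of 1 FPKM.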

How the data were processed

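The submitters' processing notes name TopHat2 (2.0.3 and 2.0.9), CASAVA 1.8.2, Cufflinks, edgeR and HTSeq 0.6.1 without saying what each did. The annotation was Ensembl Plant Release 19 of TAIR10, per the labels, and the sources used here do not say if counting used strand. Per the labels' protocols, TruSeq was used for sorted cells, which came from protoplasted root tips, and SMART-Seq v4 for sieved hairs. The deposited table of rhd6 holds a signal, normalized CPM. Beside it stand log2 fold changes, log2 levels, p-values with FDR, a likelihood ratio score and other marks of called genes, all computed by the authors. Values fell on whole multiples of what 1 read is worth (100% of them, within 0.01 read), which gave back the reads, 1 read being worth 0.0431 to 0.0957. The deposited hair tables hold the authors' FPKM, per the file headers.

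The 17575 genes that reached 1 in 3 or more of the 6 libraries were fitted together on log2(value + 1) by limma 3.58.1 (R 4.3.3), two-sided, with a trend on intensity and Benjamini-Hochberg adjustment. The fit was also run on counts simulated with 1 fixed spread for all genes and no library apart. That run does not cover libraries that differ as those of rhd6 did. edgeR 4.0.16 (quasi-likelihood) and DESeq2 1.42.0 on recovered reads, other pseudocounts, filters and scalings, and leaving out each library were alternatives. The deposited columns name libraries by number, and no label ties the numbers of WER::GFP or COBL9::GFP to replicates. Libraries of a group differed beyond counting noise (chi-square over degrees of freedom from 13.6 to 252), and correlated at 0.967 to 0.990 in wild type and 0.902 to 0.963 in rhd6. Floors are 3 reads over a group and cover counting error only.

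Named members are all 17 called, the 5 on each side of RHD6, the 10 highest in COBL9::GFP cells and those of a list of known genes. Others were named after their values were seen. Members, lists and this rule were chosen with earlier results of these data known, and the word patterns for roles were corrected after the annotation was read. Names, gene order, overlaps and copies (BLAST 2.17.0) came from RefSeq's TAIR10.1, where 17555 tested genes were found. As the tables were made on TAIR10, no base positions are given. On the same strand 7 members overlap another gene, on the other strand 44 do, and 9 have a copy of 90% identity or more. Promoter motifs and protein sequences were not used here. Python 3.11.15, numpy 2.4.6, pandas 2.3.3 and matplotlib 3.10.9 were used.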

Additional observations from a re-analysis of the deposited data

How the results depend on the processing

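The 9 lower calls ranged from 4 to 10 and the 8 higher calls from 4 to 8 when any 1 library was left out, with 4 lower without 9483 or 9519 and 4 higher without 8955, 9483 or 9489. DESeq2 called 14 members higher and 13 lower, and kept all 17. With a filter at a mean of 5, 2 members were higher. The share of all genes called is not given here for that filter or with a library left out. edgeR called 9 lower and 6 higher and kept 15. Over the 13 alternatives 8 of the 17 calls held wherever the gene was tested, namely AT1G64100, Hrd1B, AT1G65200, AT1G65950, AT1G66500, SUC7, MIR163 and AT1G66910. That of ECI1 was also lost without scaling factors, AT1G66440 with median-of-ratios scaling and a pseudocount of 0.1, and AT1G65070 and AT1G66180 with the filter at a mean of 5. Of 562 values of named members 0 changed direction with a call, 44 lost their call and 1, PAO4 in DESeq2 (-1.03), gained one. Members lower without overlap numbered 26 to 35 with a library left out, against 23 with all libraries. A group with 1 library fewer separates more readily, so a rise is built in. The share of all genes without overlap in these settings is not given here. Without scaling factors the median log2 fold change of all genes was 0.09, and 0.03 with median-of-ratios. No paired analysis was possible because the columns carry library numbers that no label ties to replicate numbers. Levels of a few reads, as in wild type for the gains, limit the size of their fold changes.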
